A study of Rattus norvegicus with 36 samples.

Results

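Small RNA of whole blood was compared between late and early weeks after irradiation of the thorax in rats. The late libraries are the 6 taken 3 and 4 weeks after 15 Gy, and the early libraries are the 6 taken 1 and 2 weeks after 15 Gy, chosen by group label alone. These 12 are among the 18 blood libraries and the 36 libraries of blood and lung in all. The order of the 4 weeks was also examined by comparing the irradiated groups alone, although the 0 Gy blood libraries were part of the main fit. All rats were female and of the strain WAG/RijCmcr, 9 to 10 weeks old at irradiation, and received a single dose of X-rays to the whole thorax, a field that held the lungs, the heart and some liver. Blood was drawn from the heart and extracted whole, so that red cells, white cells, platelets and plasma are all in each library. Unirradiated rats of matched age (0 Gy) were available at 1 and at 4 weeks, 3 libraries each, and not at 2 or 3 weeks. Each group has 3 libraries, and n counts libraries here. A library is a pool of several rats by the study's methods, while the labels give a number of rats for the group.

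Mature microRNAs (miRNAs) are short RNAs that guide a silencing complex to messenger RNAs, mostly through the seed, bases 2 to 8 from the 5′ end. Red cells are the main source of miRNA in whole blood, and miR-486-5p, made in quantity during red cell maturation, dominates such libraries, with miR-451-5p another red cell miRNA. White cells add miR-142, miR-223 and miR-150, and platelets and endothelium add miR-126 and miR-221. Blood-forming tissue in the field and circulating lymphocytes are sensitive to radiation, which makes the weeks after exposure a period of loss and renewal of blood cells. In bulk RNA, fewer cells of a type and less miRNA per cell cannot be told apart.

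The miRNAs of 2 sets carry the comparisons below, and their sequences are given first. The first set holds the known rat miRNAs with the smallest p between late and early weeks, 5 in each direction, of which miR-423-3p is named only. Mature sequences are from RefSeq (GRCr8), and capitals mark the seed.
miR-872-5p: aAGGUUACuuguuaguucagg
miR-872-3p: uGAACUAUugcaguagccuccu
miR-148b-3p: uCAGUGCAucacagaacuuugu
miR-18a-5p: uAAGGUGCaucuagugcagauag
miR-451-5p: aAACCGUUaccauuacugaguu
miR-351-5p: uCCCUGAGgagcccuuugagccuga
miR-222-3p: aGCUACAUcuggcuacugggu
miR-191a-3p: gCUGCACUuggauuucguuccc
miR-423-5p: uGAGGGGCagagagcgagacuuuu

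miR-872-5p and miR-872-3p are the arms of 1 hairpin at chr5:114654833-114654893 on the plus strand, within the protein-coding gene Ift74. miR-423-5p lies within Nsrp1 on the minus strand (chr10:62412317-62412340), miR-148b-3p within Copz1 (chr7:136299930-136299951), and miR-191a-3p within Dalrd3 (chr8:118142683-118142704). miR-451-5p (chr10:63459585-63459606) and miR-18a-5p (chr15:98588000-98588022) overlap no other gene of the table used. No seed is shared within this set, while miR-351-5p has the seed of miR-125a-5p and miR-222-3p that of miR-221-3p. The second set holds 5 miRNAs with small p in comparisons of single weeks, shown for their base composition and not by rank alone. miR-3590-3p, with a smaller p than miR-101a-5p for week 2 against week 1, is not among them. The GC content of miR-101a-5p, 45.5%, equals the median of the known rat miRNAs with a sequence. The first 3 had higher means in week 2 than in week 1 and the last 2 lower means.
miR-142-3p: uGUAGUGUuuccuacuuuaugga
miR-101a-5p: uCAGUUAUcacagugcugaugc
miR-130a-3p: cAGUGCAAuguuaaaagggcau
miR-484: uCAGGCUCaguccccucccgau
miR-92b-3p: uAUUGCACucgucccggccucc

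The 12 irradiated libraries held between 1156407 and 2244930 miRNA counts, and miR-486-5p alone took 83.3% to 94.2% of the counts of a library, so that all other miRNAs share the small remainder. The study states that sequencing may overrepresent this miRNA, since quantitative PCR placed it in the range of other red cell miRNAs. The share is therefore that of sequenced counts and need not be its share in blood. The red cell miRNAs miR-486-5p, miR-451-5p, miR-144-3p, miR-144-5p and miR-16-5p were counted in every one of the 12 libraries, as were miR-142-3p, miR-142-5p, miR-223-3p and miR-150-5p of white cells. The heart miRNAs miR-208a-5p and miR-499-5p had 0 counts in all 12, while miR-133a-3p of heart and skeletal muscle had 144 counts, with some in every library, and miR-1-3p had 12 counts in 5 libraries. Over the 12 libraries miR-200b-3p, miR-200c-3p, miR-141-3p and miR-375-3p of epithelium had 9, 8, 40 and 49 counts. The supplementary table of the study lists 0 Gy 1 week replicate 1 and 15 Gy 1 week replicate 2 under each other's number. The labels of the deposited counts were followed, and values with the exchange are given where it matters.

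No miRNA passed the test between late and early weeks. The quasi-likelihood test of edgeR was run on 289 miRNAs, and 0 (0%) had an adjusted p under 0.05 (Benjamini-Hochberg over all 289) and the smallest adjusted p was 0.616. At an unadjusted p under 0.05 there were 16 (5.54%), 10 higher (3.46%) and 6 lower (2.08%) in late weeks, and 7 of the 16 were known rat miRNAs. For 0 miRNAs did the 6 late libraries lie wholly above or wholly below the 6 early ones. The median log2 fold change, late over early, was 0.06 with 165 of 289 positive, the median absolute log2 fold change was 0.30, and the median standard error of a known rat miRNA was 0.31. With DESeq2 the count was 5 (1.73%), all of them new loci counted in only a few libraries. With 15 Gy 1 week replicate 2 left out, edgeR called 1 new locus, and the count at an unadjusted p under 0.05 lay between 8 and 31 with single libraries left out.

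The 5 known rat miRNAs with a higher mean in late weeks and the smallest p were both arms of miR-872, miR-148b-3p, miR-18a-5p and miR-451-5p. Levels are CPM, the counts per 1000000 counts of a library, after scaling by the trimmed mean of M values (TMM). miR-872-5p was at 7.24, 3.59 and 3.68 CPM in week 1, at 16.7, 13.2 and 15.8 CPM in week 2, at 14.8, 21.0 and 11.6 CPM in week 3 and at 16.6, 23.4 and 11.7 CPM in week 4. The libraries of week 1 lay below all 9 others, and those of weeks 2, 3 and 4 overlapped, so that the difference of 0.94 on the log2 scale (SE 0.32, unadjusted p = 0.0106 and adjusted p = 0.616, edgeR) came with a low week 1. With the exchange, a library of 15.5 CPM enters week 1 and it overlaps weeks 2, 3 and 4. miR-872-3p, from the other arm, ran from 15.2 to 49.1 CPM in late libraries (median 35.6) and from 15.0 to 34.4 CPM in early ones (median 17.7), with a log2 fold change of 0.75 (SE 0.34).

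miR-148b-3p, a member of the miR-148 and miR-152 family, had 95.6 to 170 CPM in late libraries (median 132) and 74.4 to 106 CPM in early libraries (median 98.7). Its log2 fold change was 0.43 (SE 0.19), and its 3 libraries of week 4 (134, 170 and 138 CPM) lay above all 9 others of 15 Gy. This makes it the one among the 10 named whose high values sat at the last week. miR-18a-5p, of the miR-17-92 cluster that supports growth of blood progenitors, had 14.9 to 31.7 CPM in late libraries (median 22) and 7.24 to 21.8 CPM in early libraries (median 10.9), with a log2 fold change of 0.91 (SE 0.43). miR-451-5p, which is needed for normal red cell maturation in mice, had 3086 to 7772 CPM in late libraries (median 5186) and 1939 to 6090 CPM in early libraries (median 2939), with a log2 fold change of 0.70 (SE 0.33). In both, all 3 libraries of week 1 lay below every library of weeks 2, 3 and 4, which with the exchange holds for miR-18a-5p but not for miR-451-5p (3115 CPM in the library that enters week 1).

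The 5 with a lower mean in late weeks and the smallest p were miR-351-5p, both arms of miR-423, miR-222-3p and miR-191a-3p. miR-423-5p was at 450, 268 and 354 CPM in week 1, at 88.2, 143 and 123 CPM in week 2, at 104, 106 and 83.4 CPM in week 3 and at 183, 122 and 207 CPM in week 4. Week 1 was again apart, above all 9 other libraries after 15 Gy, and week 4 reached higher than week 3 without overlap. At 0 Gy some libraries reached into the range of week 1. With the exchange, week 1 takes in a library of 154 CPM and overlaps week 4. The log2 fold change of late over early was -0.67 (SE 0.33) for miR-423-5p and -0.97 (SE 0.39) for miR-423-3p, which had 59.5 to 123 CPM in late libraries and 88.7 to 291 CPM in early ones. The table also lists hsa-miR-3184-3p, a human name for the strand opposite to miR-423, with nearly the same counts as miR-423-5p, and reads of both strands cannot be told apart in these counts.

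miR-351-5p, of the miR-322 cluster on chromosome X, had 3.69 to 13.8 CPM in late libraries (median 5.99) and 7.43 to 15.6 CPM in early libraries (median 13.7), with a log2 fold change of -0.77 (SE 0.29). Its 3 libraries of week 1 (15.0, 15.1 and 15.6 CPM) lay above all others after 15 Gy, and its mean was lowest in week 3 (6.06, 5.09 and 3.69 CPM), while week 4 (11.9, 5.92 and 13.8 CPM) overlapped week 2. miR-222-3p, which restrains the stem cell factor receptor in human blood progenitors, had 5.28 to 8.76 CPM in late libraries (median 6.71) and 5.82 to 14.7 CPM in early libraries (median 9.47), with a log2 fold change of -0.51 (SE 0.22). miR-221-3p, with the same seed, had a log2 fold change of the other sign (0.33, SE 0.27). miR-191a-3p, the less abundant arm of its hairpin, had 0.674 to 3.40 CPM in late libraries and 1.39 to 5.52 CPM in early ones, a low level, with a log2 fold change of -1.02 (SE 0.47). The unadjusted p of the 10 ran from 0.0106 to 0.0592 and the adjusted p of each was 0.616 (edgeR). All 10 were chosen by a comparison that holds week 1. The share of all 289 miRNAs with week 1 apart from all other weeks was not counted.

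**Figure D1:**
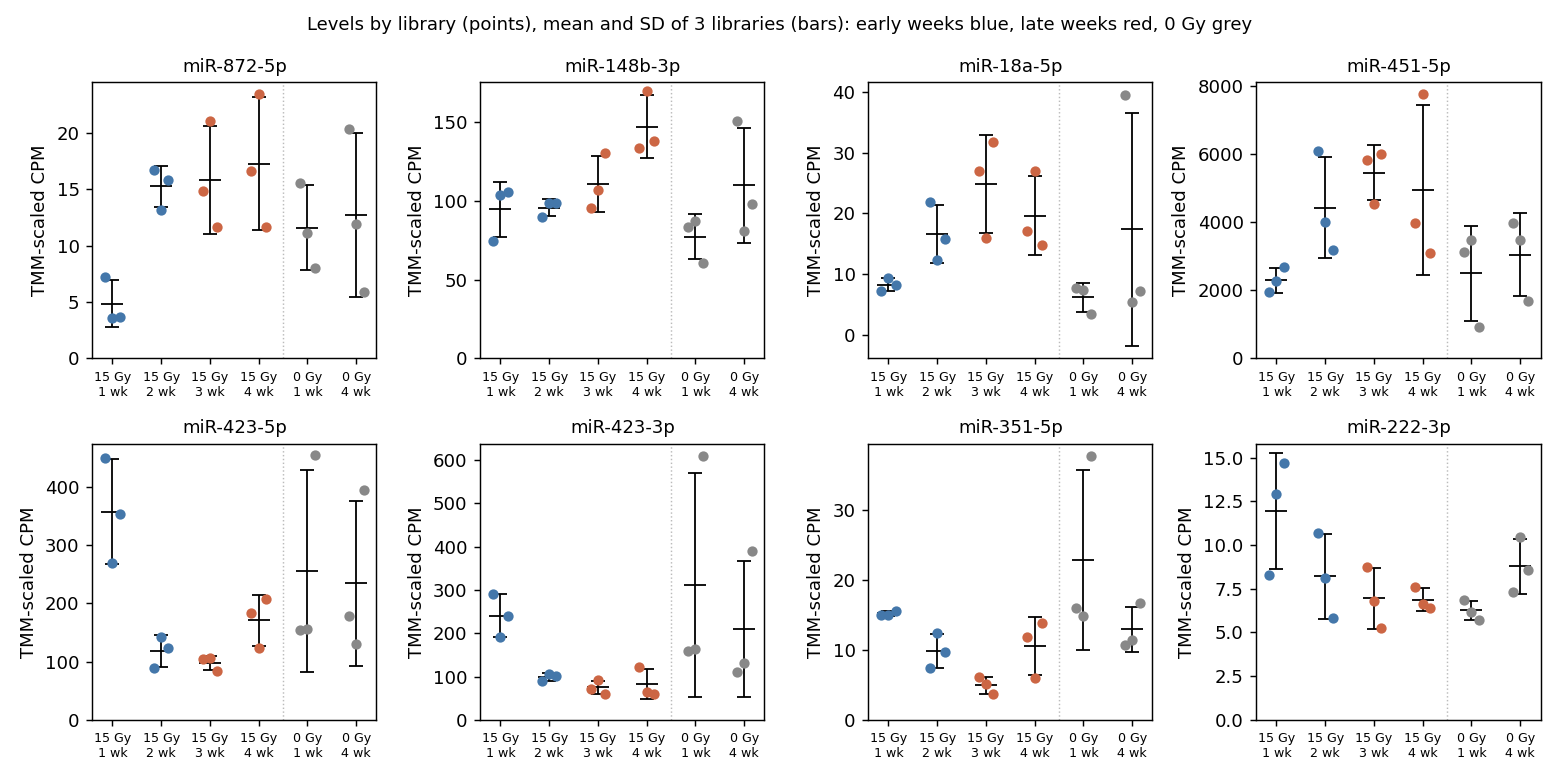
TMM-scaled CPM (y axis of each panel, own scale) of 8 miRNAs in each blood library by group, with points for libraries and bars for the mean and SD of 3. Week 1 stands apart from weeks 2 to 4 for miR-872-5p, miR-18a-5p, miR-451-5p, miR-351-5p and both arms of miR-423 (with the exchange of the 2 libraries in doubt, only for miR-18a-5p, miR-351-5p and miR-423-3p), and only miR-148b-3p is highest at week 4 without overlap.

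Unirradiated rats aged over the same interval give a measure of change without dose, for week 4 against week 1 only. At 0 Gy, miR-18a-5p had a log2 fold change of 1.44 (95% interval 0.21 to 2.66), miR-872-3p of 0.94 (-0.02 to 1.91), miR-148b-3p of 0.51 (-0.02 to 1.03) and miR-351-5p of -0.80 (-1.59 to -0.01), each of the same sign as late over early after 15 Gy. So did miR-451-5p (0.29) and the arms of miR-423 (-0.56 for the 3p arm and -0.12 for the 5p arm). The high value of miR-18a-5p at 0 Gy week 4 came from 1 library of 3 (39.5, 5.48 and 7.22 CPM). miR-872-5p had a log2 fold change of 0.11 at 0 Gy (-0.76 to 0.99) and of 1.81 between week 4 and week 1 after 15 Gy, but the difference of these changes did not pass (1.70, adjusted p = 0.686, edgeR). miR-222-3p and miR-191a-3p had the other sign at 0 Gy (0.48 and 0.31), and there too the difference did not pass (adjusted p = 0.675 and 0.852, edgeR). Over all 289 miRNAs, the change from week 1 to week 4 differed between 15 Gy and 0 Gy for 1 (0.346%), a new locus on chromosome 19.

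**Figure D2:**
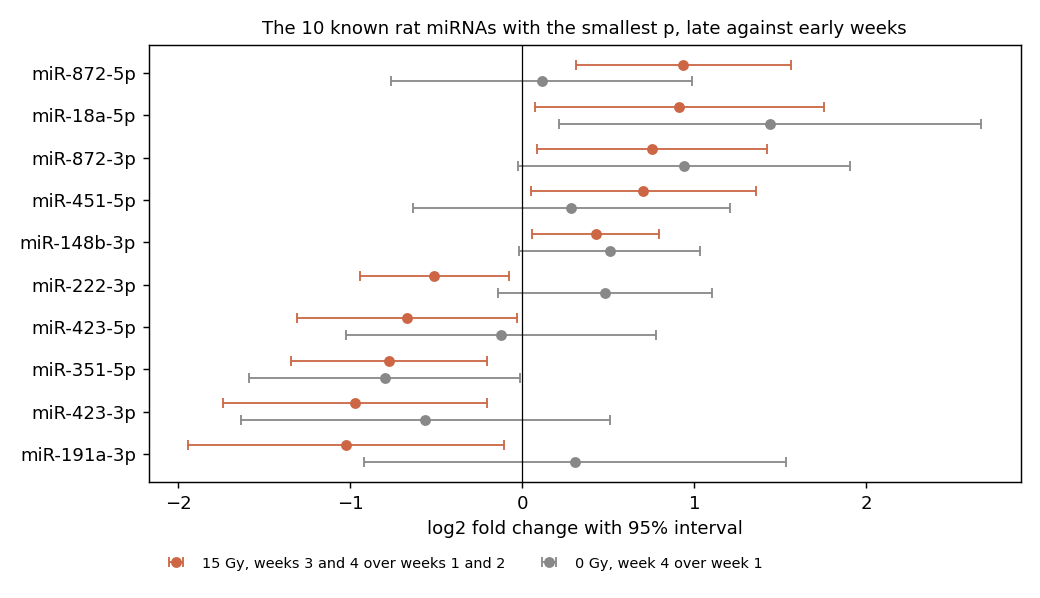
Log2 fold change (x axis) of the 10 named miRNAs, for 15 Gy weeks 3 and 4 over weeks 1 and 2 (red, n = 6 and 6) and for 0 Gy week 4 over week 1 (grey, n = 3 and 3), with bars of 1.96 standard errors to each side, unadjusted. The intervals of both comparisons overlap for each of the 10 miRNAs. The comparisons span different weeks, and overlap does not show that the changes are alike.

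The order of the weeks was not that of a steady course. Between single weeks, 0 of 289 miRNAs passed in any of the 6 pairs, but the counts at an unadjusted p under 0.05 differed widely. Week 2 against week 1 gave 52 (18%), of which 20 were higher (6.92%) and 32 lower (11.1%) in week 2. Week 3 against week 1 gave 41 (14.2%) and week 4 against week 1 gave 22 (7.61%). Pairs without week 1 gave 3 for week 3 against week 2 (1.04%), 4 for week 4 against week 3 (1.38%) and 11 for week 4 against week 2 (3.81%). DESeq2 called 18 for week 2 against 1, 7 for week 3 against 1, 4 for week 4 against 1, 3 for week 3 against 2, 4 for week 4 against 3 and 5 for week 4 against 2. Of the calls against week 1, 12 of the 18, 3 of the 7 and 1 of the 4 were known rat miRNAs. All DESeq2 calls in the pairs without week 1 were new loci, which can be listed at 0 in a whole group. Among them, chr3_118996605_118996685 had 715, 0 and 771 counts in week 2 and 0 in each library of week 4. With only the 12 irradiated libraries in the fit, edgeR called 12 for week 2 against 1 and 11 for week 3 against 1. The 3 libraries of 1 week lay wholly to one side of those of the other for 85 miRNAs between weeks 2 and 1 (29.4%), for 88 between weeks 3 and 1 (30.4%) and for 35 between weeks 4 and 1 (12.1%), and for 36 (12.5%), 35 (12.1%) and 26 (9%) between weeks 3 and 2, 4 and 2, and 4 and 3. These pairs share libraries and are not independent of each other.

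Among known rat miRNAs, the distance between group means was larger for the pairs with week 1. Over the 142 known rat miRNAs tested, the root mean square log2 distance from week 1 was 0.837 to week 2, 0.760 to week 3 and 0.591 to week 4. Among the other weeks it was 0.402 between weeks 2 and 3, 0.404 between weeks 3 and 4 and 0.498 between weeks 2 and 4. Over all 289 miRNAs this order did not hold, with 1.02 from week 1 to both week 2 and week 3, 0.883 between weeks 2 and 4 and 0.848 between weeks 1 and 4. Over known rat miRNAs, week 1 was the irradiated week nearest to both 0 Gy groups. The distances from 0 Gy at 1 and at 4 weeks were 0.548 and 0.460 for week 1 and 0.740 and 0.735 for week 2. They were 0.7575 and 0.6755 for week 3 and 0.587 and 0.489 for week 4. Over all 289, week 2 (0.933) was nearer to 0 Gy 1 week than week 1 was (0.998). None of these distances was computed with the exchange. Single libraries of 1 group were on average 0.720, 0.541, 0.552 and 0.927 apart in weeks 1, 2, 3 and 4, and week 4 was the most uneven. The comparison of 3 against 1 week and that of 4 against 2 weeks have no library in common, and their log2 fold changes ran in opposite directions (Pearson's r = -0.398, Spearman's rho = -0.413 across 142 miRNAs, which are not independent), with 44 of 142 of the same sign (31%). The comparisons of 4 against 1 week and of 3 against 2 weeks, also without a library in common, were unrelated in this measure (r = -0.0989, rho = -0.0085), with 72 of 142 of the same sign (50.7%).

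**Figure D3:**
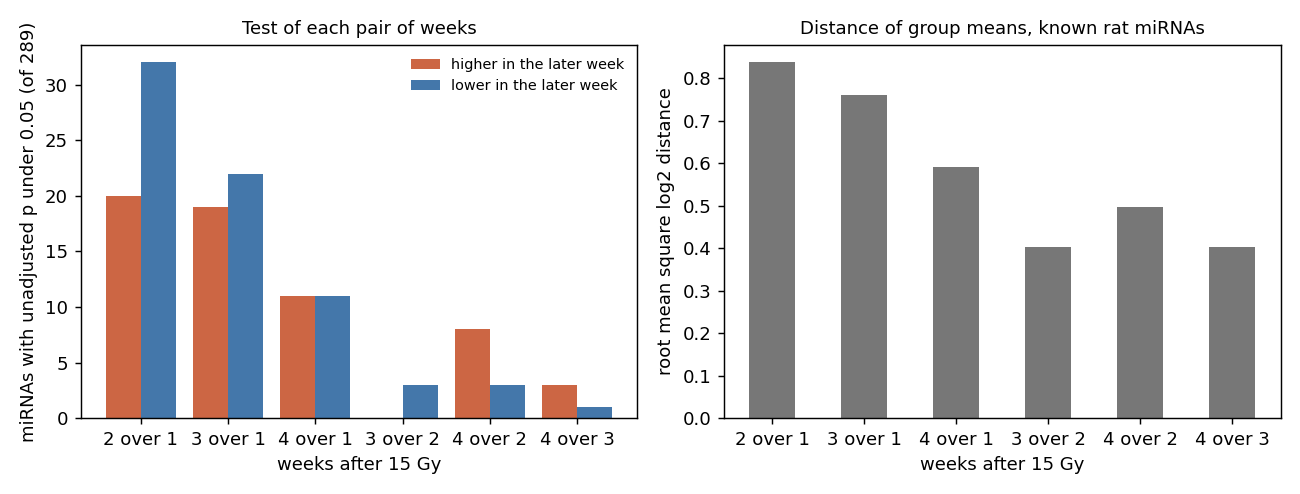
For each pair of weeks after 15 Gy (x axis, later over earlier), the left panel counts miRNAs with an unadjusted p under 0.05, higher (red) or lower (blue) in the later week, of 289 tested, and the right panel gives the root mean square log2 distance of group means over 142 known rat miRNAs. The 3 pairs with week 1 stand highest in both panels, though over all 289 miRNAs the distance between weeks 2 and 4 (0.883) is above that between weeks 1 and 4 (0.848).

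Few miRNAs followed the order of the weeks. Of the 142 known rat miRNAs, 3 had means that were higher in each week than in the one before and 7 had means that were lower in each. The highest mean was in week 1 for 62, in week 2 for 31, in week 3 for 30 and in week 4 for 19, and the lowest mean was in week 1 for 50, in week 2 for 43, in week 3 for 27 and in week 4 for 22. Week 1 thus held either end of the range for most, and week 4 for fewest. Both late means were above both early means for 23 and below them for 15. A linear trend over the 4 weeks passed for 0 of 289 (0%), with 23 (7.96%) at an unadjusted p under 0.05 and a smallest adjusted p of 0.585 (edgeR). DESeq2 called 3 for the trend, all of them new loci. miR-872-5p had the smallest p of this trend (slope 0.55 per week on the log2 scale, SE 0.15), followed among known rat miRNAs by miR-423-3p, miR-101a-5p, miR-92b-3p and miR-3473. A test of any difference among the 4 weeks passed for 0 of 289 (0%) with edgeR and for 0 with DESeq2, with 19 (6.57%) at an unadjusted p under 0.05 in edgeR (smallest adjusted p 0.504).

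Week 2 against week 1 gave the most miRNAs with a small p. miR-142-3p, found in nearly all white cells, was at 112, 86.0 and 76.9 CPM in week 2, against 34.6, 23.0 and 25.7 CPM in week 1, a log2 fold change of 1.72 (SE 0.44). It was at 90.3, 67.6 and 50.7 CPM in week 3 and at 37.5, 81.4 and 19.1 CPM in week 4, where replicate 2 of week 4 alone lay within the range of week 2. miR-101a-5p had 43.6, 32.5 and 22.3 CPM in week 2, against 7.24, 8.61 and 11.9 CPM in week 1, and 20, 37.6 and 21.2 CPM in week 4. miR-130a-3p, abundant in progenitors and platelets, had 9.75, 9.68 and 9.37 CPM in week 2, against 5.17, 2.15 and 3.68 CPM in week 1, and 5.23, 4.26 and 4.25 CPM in week 4. In all 3, week 2 lay above week 1 without overlap, and for miR-130a-3p also above week 4. With the exchange this no longer holds for miR-101a-5p, whose week 1 then takes in a library of 22.8 CPM.

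In the other direction, miR-484 had 25.1, 24.8 and 29.7 CPM in week 2, against 49.1, 52.4 and 68.0 CPM in week 1, a log2 fold change of -1.09 (SE 0.30) that became 0.10 under scaling by library totals. miR-92b-3p, which shares the seed AUUGCAC with miR-92a-3p, miR-25-3p and miR-363-3p, had 5.57, 9.30 and 7.11 CPM in week 2, against 14.5, 23.7 and 23.0 CPM in week 1. Neither overlapped between the weeks. The adjusted p of miR-142-3p, miR-101a-5p, miR-130a-3p, miR-484 and miR-92b-3p was 0.15 (edgeR, over 289). When only known rat miRNAs were tested, 8 of 142 (5.63%) passed, all higher in week 2 (miR-101a-5p, miR-130a-3p, miR-142-3p, miR-144-5p, miR-21-5p, miR-301a-3p, miR-3590-3p and miR-872-5p, each with an adjusted p of 0.0331, edgeR). miR-3590 lies on the strand opposite miR-130a. When only the 12 irradiated libraries were fitted, 12 of 276 (4.35%) passed, 8 higher and 4 lower, and DESeq2 called 18 of 289 (6.23%), 14 higher and 4 lower. With 0 Gy 1 week replicate 1 and 15 Gy 1 week replicate 2 exchanged, 0 passed and 32 had an unadjusted p under 0.05. The split at an unadjusted p under 0.05 depended on the scaling, with 20 higher and 32 lower in week 2 under TMM, 26 higher and 14 lower under RLE size factors and 82 higher and 1 lower under library totals. The median log2 fold change of all 289 was -0.12, 0.02 and 1.03 under these 3 scalings, and each value above is read against the -0.12 of TMM.

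Base composition of the miRNAs went along with these differences. For the 127 of 142 known rat miRNAs with a RefSeq sequence, the log2 fold change of week 2 over week 1 was lower the higher the GC content of the mature sequence (Pearson's r = -0.661, Spearman's rho = -0.694 across miRNAs that share libraries). The 15 with an unadjusted p under 0.05 and higher in week 2 had a median GC content of 38.1%, the 12 that were lower one of 51.2%, and all 127 one of 45.5%. The relation had the same sign for week 3 over week 1 (r = -0.54) and week 4 over week 1 (r = -0.462) and the other sign for week 4 over week 2 (r = 0.532). For late over early it was weak (r = -0.203). Among the 127, 10 (7.87%) passed between week 2 and week 1 before each library was adjusted for its relation to GC content, and 0 (0%) after, with 22 at an unadjusted p under 0.05 (edgeR). Late against early had 0 passing before and after that adjustment, and the log2 fold change of miR-872-5p was 0.88 after it. This adjustment was chosen after the data were seen. Its slopes come from the same levels that are tested, so it removes any difference between weeks that goes with GC content, whatever its source. The fall in calls therefore cannot decide what part base composition has.

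**Figure D4:**
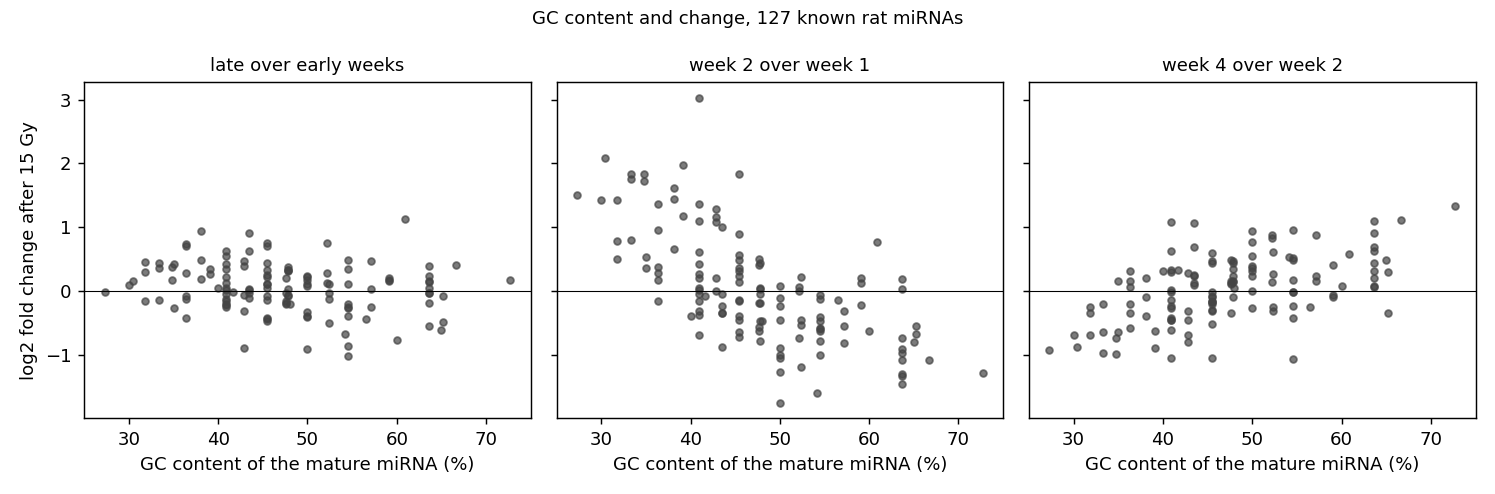
Log2 fold change after 15 Gy (y axis) against the GC content of the mature miRNA in percent (x axis) for 127 known rat miRNAs, 1 point each. The points slope down for week 2 over week 1 (r = -0.661), slope up for week 4 over week 2 (r = 0.532), and scatter with little slope for late over early (r = -0.203).

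Among measures of whole libraries, a GC measure and the share of miR-486-5p set week 1 apart from week 2. The GC measure uses the levels of the same 127 miRNAs as the relation above and restates it by library. The correlation, within a library, of GC content with the deviation of each miRNA from its mean over libraries was 0.279, 0.508 and 0.602 in week 1, -0.550, -0.580 and -0.399 in week 2, -0.381, -0.365 and 0.0195 in week 3 and -0.0972, -0.147 and 0.344 in week 4. Weeks 1 and 2 lay at opposite ends, and the early libraries that hold both had the wider spread, with a mean of -0.104 ± 0.269 in late and -0.0233 ± 0.546 in early libraries (SD, n = 6 each). The share of miR-486-5p was 89.7%, 93.7% and 94.2% in week 1, 83.6%, 85.5% and 84.6% in week 2, 92.3%, 84.8% and 90.7% in week 3 and 86.3%, 83.3% and 94.2% in week 4. It averaged 88.6 ± 4.43% in late and 88.6 ± 4.68% in early libraries (SD, n = 6 each). The 3 libraries of week 2 lay below those of week 1 in both measures. No difference between late and early libraries passed in any of 6 such measures (exact permutation test over 924 splits, two-sided, p = 0.600 to 0.989, adjusted p = 0.989 for each). The part of base composition and of the miR-486-5p share in the differences between weeks was not tested, and the adjustment above cannot decide it.

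**Figure D5:**
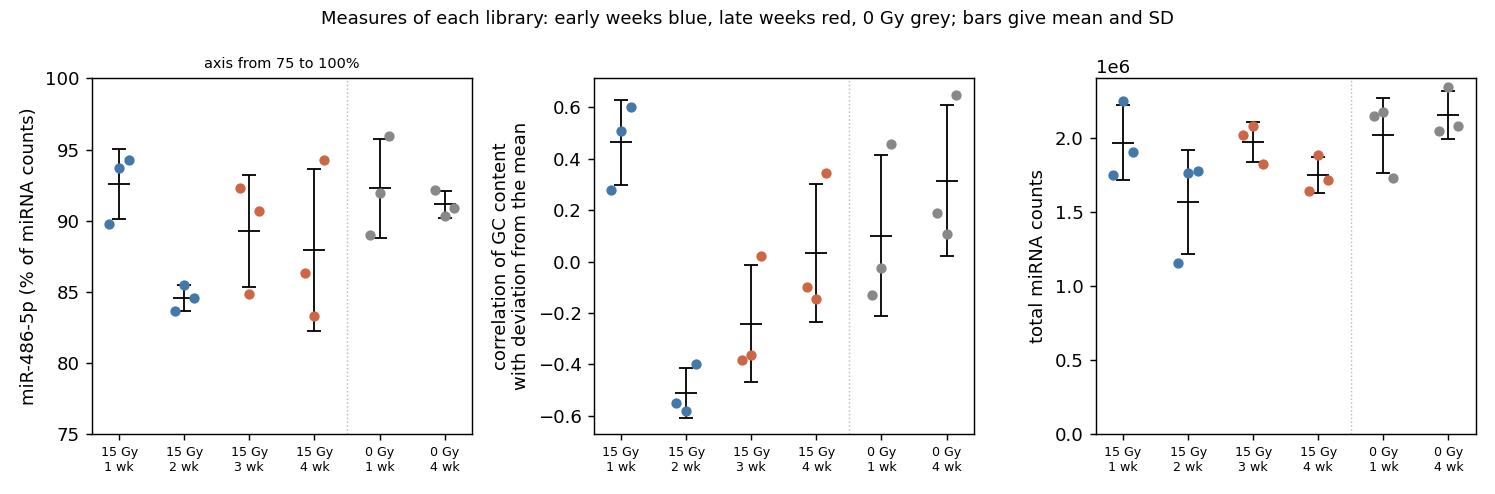
Share of miR-486-5p (left, percent of counts, axis from 75 to 100), correlation of GC content with the deviation of each miRNA (middle) and total miRNA counts (right) of each blood library by group, with the mean and SD of 3. Weeks 1 and 2 lie apart in the first 2 panels, and weeks 3 and 4 spread over much of the range.

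Lists of related miRNAs had medians between -0.47 and 0.37 for late over early weeks, and 0 members passed in any of them. The median log2 fold change is given for each list beside 0.06 for all 289. All 7 red cell miRNAs were tested, 5 had a positive value and the median was 0.16, which became -0.10 without 15 Gy 4 weeks replicate 2 and -0.01 without 15 Gy 3 weeks replicate 1. Of the miR-17-92 cluster and its paralogs, 14 of 16 were tested, 11 were positive and the median was 0.31, from -0.26 for miR-92a-3p to 0.91 for miR-18a-5p. All 3 of the miR-103 and miR-107 family, which includes hsa-miR-103b, were positive (median 0.37), and hsa-miR-103b overlaps miR-103 in sequence on the opposite strand and is not an independent value. Platelet and endothelial miRNAs had 4 of 5 positive and a median of 0.25, with miR-222-3p the exception.

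Among lymphocyte miRNAs 4 of 7 were tested and 3 were positive (median 0.25). miR-342-3p had 5.23 to 18.1 CPM in late libraries (median 6.43) and 3.62 to 6.43 CPM in early libraries (median 5.22), and miR-150-5p, the main miRNA of mature lymphocytes, had 10.6 to 31.9 CPM in late libraries (median 22.4) and 12.3 to 27.6 CPM in early libraries (median 17.4). At 0 Gy miR-150-5p ran from 21.9 to 265 CPM, and among the irradiated libraries only the 3 of week 4 and replicate 3 of week 1 lay above the lowest of these. With the exchange, the lowest at 0 Gy is 14.4 CPM and 8 of 12 irradiated libraries lie above it. Myeloid and general white cell miRNAs had 1 of 3 tested members positive and a median of -0.14, beside a median of 1.72 for week 2 over week 1 and of -0.98 for week 4 over week 2. The value of 1.72 comes from the arms of 1 hairpin (1.72 for miR-142-3p and 1.84 for miR-142-5p), and miR-223-3p, the myeloid member, had a log2 fold change of -0.0032 for week 2 over week 1. The median of -0.14 took the other sign without 15 Gy 2 weeks replicate 1 (0.01), 15 Gy 4 weeks replicate 1 (0.02) or 15 Gy 4 weeks replicate 3 (0.08). Summed over the list, their level was 81.8 to 460 CPM in late and 113 to 586 CPM in early libraries.

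Of families that share a seed or a cluster, let-7 and miR-98 had 4 of 8 tested members positive (median -0.02), the miR-181 family 1 of 4 (median -0.05), the miR-30 family 4 of 5 (median 0.11), and miR-23, miR-27 and miR-24 had 2 of 5 (median -0.04). Both tested members with the seed of miR-15 and miR-16 were positive (median 0.22), with miR-16-5p at 4926 to 15226 CPM in late and 3945 to 8301 CPM in early libraries. Of miRNAs tied to p53, the transcription factor of the DNA damage response, 3 of 9 were tested and 2 were positive (median 0.20). Inflammation miRNAs had 2 of 4 positive (median 0.07), with miR-21-5p at 233 to 439 CPM in late and 119 to 581 CPM in early libraries. Single members of the fibrosis, smooth muscle, muscle and liver lists were tested, with log2 fold changes of 0.34, 0.11, -0.25 and -0.47. The last 3 of these took the other sign when single libraries were left out, with ranges of -0.12 to 0.24, -0.90 to 0.05 and -0.83 to 0.29. Of lung epithelium miRNAs 0 of 7 passed the filter on low counts. A list of the 7 miRNAs singled out for blood when these data were reported had 6 positive values and a median of 0.16. Some of them were chosen by the study on these same libraries, and for those the values are no independent evidence. Their median was 1.42 for week 2 over week 1 and -0.69 for week 4 over week 2.

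Among predicted new miRNAs a count of 0 need not mean a lack of reads, since 26 of the 110 tested had 0 counts in some libraries and at least 100 in others. The smallest p of late against early belonged to a new locus named for chr5:114979177-114979315 (rn4), with 16.2 to 43.8 CPM in late libraries (median 23.5) and 10.8 to 19 CPM in early libraries (median 15.1), a log2 fold change of 0.81 (SE 0.27, adjusted p = 0.616, edgeR). Its counts were near those of miR-872-5p in some libraries, such as 107 and 99 in 15 Gy 4 weeks replicate 2. In others they were not, such as 31 and 14 in 15 Gy 1 week replicate 1, where miR-872-3p had 29. The locus and both arms of miR-872 lie on chromosome 5, with positions given in different builds. Whether they share reads was not tested. The locus is therefore not taken as independent of either arm. The 5 loci called by DESeq2, named here after their values were seen, were counted in 0 to 3 of 6 late and in 1 to 3 of 6 early libraries. The locus chr1_56486961_56487047 (in the file's naming) was among them and had 0 counts in the 6 late libraries and 182 and 43 counts in 2 of the 6 early ones, so that its call rests on 2 libraries. The new locus on chromosome 19 (chr19:25638547-25638840, rn4) had 32.7, 39.8 and 34.7 CPM at 0 Gy 4 weeks, and was listed at 0 in the 3 libraries of 0 Gy 1 week. After 15 Gy it had 31.4, 51.4 and 21.2 CPM in week 4 and 38.3, 13.6 and 40.4 CPM in week 1, and the change differed between doses (adjusted p = 5.71e-05, edgeR). With the exchange of the 2 libraries in doubt this call was lost.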

How the data were processed

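Per the study's methods, small RNA libraries were sequenced, trimmed with Trim Galore (version 0.2.5) and mapped with Bowtie (version 1.1.1) to miRBase 19, other RNA classes were removed, and new miRNAs were predicted on rn4. The authors deposited raw counts per miRNA for 947 miRNAs (458 known in rat, 116 homologs and 373 new). The libraries carry no molecular identifiers, so counts are not independent molecules. The submitters' processing notes supplied the versions of both tools.

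The 18 blood libraries were fitted together, by group and without covariates, with edgeR 4.0.16 in R 4.3.3 (TMM scaling, filterByExpr, quasi-likelihood F test, Benjamini-Hochberg over all miRNAs tested, threshold 0.05). The filter kept 289 miRNAs (142 known, 37 homologs, 110 new). Late against early is the mean of the group means of weeks 3 and 4 minus that of weeks 1 and 2. Intervals are 1.96 standard errors to each side, and the standard error is the fold change over the root of F. Late and early library measures were compared with exact permutation tests. Named miRNAs are the 5 smallest p per direction or comparison among known rat miRNAs, those of the lists, and the 3 smallest p of all. The members and lists were chosen with earlier results of these data known. The test was checked on simulated counts. Alternatives were other scalings and filters, DESeq2 1.42.0, fewer libraries or miRNAs, a replicate block, leaving out each library, and exchanging the 2 libraries in doubt. Because each library pools rats, p-values measure the spread between pools. Lung libraries were not used here.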

Additional observations from a re-analysis of the deposited data

Results flagged for a closer look

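Among the 6 early libraries, miR-872-3p had a single high value, 34.4 CPM in 15 Gy 2 weeks replicate 1, whose gap to the next library was 0.648 of the whole range on the log2 scale. It was the 1 of 38 such checks that passed the limit, where chance gives about 1 in 20.

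The change between week 4 and week 1 differed between 15 Gy and 0 Gy for the new locus chr19:25638547-25638840 (rn4; adjusted p = 5.71e-05, edgeR). It averaged 34.7 ± 15.3 CPM at 4 weeks and 30.8 ± 14.9 CPM at 1 week after 15 Gy, a ratio of 1.13, and at 0 Gy 35.8 ± 3.66 CPM at 4 weeks while all 3 libraries at 1 week were listed at 0 (SD, n = 3 each). At new loci a 0 need not mean a lack of reads. With 15 Gy 1 week replicate 2 and 0 Gy 1 week replicate 1 exchanged, the locus was not called.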

How the results depend on the processing

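The 10 miRNAs named between late and early weeks kept their direction and missed the threshold with each library left out. The same held under every alternative that tested them, 11 for miR-191a-3p, 12 for miR-423-3p and 13 or 14 for the others. miR-872-5p ranged from 0.51 to 1.07 over the alternatives and from 0.78 to 1.15 with libraries left out. Counts of calls moved as follows. DESeq2 called 5 for late against early, 3 for the trend, 18 for week 2 against 1, 7 for week 3 against 1, 4 for week 4 against 1, 3 for week 3 against 2, 4 for week 4 against 3, 5 for week 4 against 2, 2 at 0 Gy and 4 for the difference between doses. Outside the pairs with week 1 after 15 Gy, all calls of DESeq2 were new loci. Week 2 against 1 had 8 with known rat miRNAs only, 12 with the 12 irradiated libraries, 10 with the miRNAs that have a sequence, and 11 with the replicate block. The 12 irradiated libraries alone gave 11 for week 3 against 1 and 4 for any difference. Entries with the same or nearly the same counts are counted separately in both, such as miR-423-5p and hsa-miR-3184-3p. The single call at 0 Gy and the single call for the difference between doses became 0 with a mean count of at least 100, with known rat miRNAs only, with the exchange, and with the miRNAs that have a sequence, adjusted for GC or not, and the call for the difference between doses also became 0 with scaling to miR-191a-5p. Under library totals miR-484 had a log2 fold change of 0.10 for week 2 over week 1, against -1.09. Of 18 list medians for late over early, 11 took the other sign under some alternative or with some library left out. The cause of these moves was not tested.

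With each library left out in turn, calls ranged from 0 to 1 for late against early, the trend, any difference, week 4 against 1, week 3 against 2, week 4 against 3 and week 4 against 2, from 0 to 2 for week 2 against 1, from 0 to 3 for week 3 against 1, from 1 to 2 for the difference between doses, and stayed at 1 at 0 Gy. The 1 call for late against early came without 15 Gy 1 week replicate 2, and so did 1 call each for the trend, any difference and weeks 2, 3 and 4 against 1, for a new locus of chromosome 11 with 0 counts in the remaining libraries of week 1. The 2 calls for week 2 against 1, miR-142-3p and miR-142-5p, came without 15 Gy 4 weeks replicate 2, as did the call for week 4 against 2, and those for week 3 against 2 and week 4 against 3 came without 15 Gy 3 weeks replicate 1. The 3 calls for week 3 against 1 came without 0 Gy 1 week replicate 3. The unadjusted count of late against early, 16, ranged from 8 to 33 over the alternatives and from 8 to 31 with libraries left out.

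Replicate numbers were not taken as a pairing, although 28 of 45 pairs of the same number correlated above 0.1 (median 0.202). The other 17 did not, among them the 3 of weeks 2 and 1 after 15 Gy (0.0922, 0.0253 and -0.0362). The 3 of the 0 Gy groups did (0.291, 0.502 and 0.573). Within each blood group, replicate 3 had the highest GC measure. Whether the numbers mark libraries handled together was not tested. With the replicate block, late against early had 0 calls, week 4 against 1 at 0 Gy had 1, and week 2 against 1 had 11 (9 higher, 2 lower). Depth limits the rarer miRNAs, as miR-191a-3p averaged 6.56 counts a library.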
